A study of Mus musculus with 8 samples.

Results

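The nuclear genes for subunits of the 4 respiratory chain complexes (I to IV) and of the ATP synthase (complex V) were examined in C2C12 cells that carried a retrovirus expressing HDAC4. Member probes were those that the platform annotation maps to exactly 1 gene whose symbol starts with Nduf, Sdha to Sdhd, Uqcr, Cyc1, Cycs, Cox4 to Cox8 or Atp5. The prefixes matched 102 probes. Of these, 10 for assembly factors (8 Ndufaf and 2 Sdhaf), 2 for a pseudogene and 2 for Cycs, to which the annotation gives more than 1 gene identifier, were left out. This left 88 probes for 79 genes, of 31769 probes and 14510 named genes on the array: 33 genes of complex I, 4 of complex II, 9 of complex III, 16 of complex IV and 17 of complex V. Ndufa4, named for complex I and since assigned to complex IV, was counted with complex IV.

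C2C12 is an established mouse myoblast line of C3H origin that fuses into myotubes in low serum. The HDAC4 group (4 samples) was stably selected with a retrovirus encoding HDAC4 and Neo, and the Neo group (4 samples) with a retrovirus encoding Neo alone. Every culture reached 90% confluence and then spent 4 days in 2% horse serum. Nothing in the labels gives the promoter of the virus, the number of selected clones, or whether samples of a group were separate cultures, so the p-values given here speak of the variation among these arrays and perhaps of technical variation alone.

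Complexes I and II feed electrons from NADH and succinate into ubiquinone. Complex III passes them through cytochrome c to complex IV, cytochrome c oxidase, which reduces oxygen, and complex V uses the resulting proton gradient to make ATP. Most subunits are encoded in the nucleus and are made in all tissues with mitochondria. A few small subunits of cytochrome c oxidase have isoforms for heart and skeletal muscle, among them Cox6a2, Cox7a1 and Cox8b, beside the widely expressed Cox6a1, Cox7a2 and Cox8a. HDAC4 belongs to the class IIa histone deacetylases and represses genes bound by MEF2 factors.

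Each value is a log2 ratio of Cy5-labelled cell RNA over a Cy3-labelled common murine reference RNA, centred on the median of its array. A level of 1 is thus a 2-fold higher signal in the cells than in the reference. The direction cells over reference is likely rather than stated. It rests on the dyes in the labels and on muscle markers: the array medians of 6 markers lay between 7.49 and 8.39 in HDAC4 cells and between 8.08 and 8.64 in Neo cells. Of these 6 markers 2 were higher in HDAC4 cells and 4 lower, with a median change of -0.17, and none passed an adjusted p of 0.05. Myog and Des had changes of 0.19 and 0.023, and Ckm and Tnnt3 of -0.17 and -0.18. Mb, myoglobin, had 7.28, 8.21, 8.55 and 8.63 in HDAC4 cells and 9.44, 9.01, 9.22 and 8.62 in Neo cells, a change of -0.91 ± 0.30 (SE; adjusted p = 0.503 in limma). Actn2, a sarcomeric actinin singled out after its values were seen, had 6.45, 0.67, 6.99 and 6.65 in HDAC4 cells and 7.77, 7.47, 7.53 and 7.78 in Neo cells. Its groups did not overlap, as for 5.35% of all features, and its change was -2.44 ± 1.21 (SE, adjusted p = 0.742 in limma). All 8 values of Mb, Actn2, Ckm and Myog lay at the reference minimum described below for Cox8b, as did 6 values of Des and 21 over the probes of Tnnt3. The part of these markers in the subunit results was not tested.

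Markers of myoblasts and of dividing cells were split. The determination factors Myod1 and Myf5 lay above the reference, Myod1 at 7.77 in HDAC4 cells and 8.02 in Neo cells and Myf5 at 1.09 in HDAC4 cells and 1.49 in Neo cells (means). The cell cycle genes Mki67, Top2a and Cdk1 lay below it, at -4.36, -3.72 and -3.45 in HDAC4 cells and -4.38, -3.88 and -3.83 in Neo cells. All 8 values of Myod1 and 5 values of Myf5, which had 3 values in HDAC4 cells, lay at the reference minimum described below for Cox8b. Pax7 had no value on any array, and none of the 5 tested markers passed. No probe is named for Hdac4, so the virus's own gene gives no check of the labels.

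The arrays carried between 17014 and 18521 values in HDAC4 cells and between 19248 and 22193 in Neo cells. The HDAC4 and Neo arrays numbered 1 stood apart: they correlated across features at 0.95 with each other and at 0.89 to 0.91 with the other 6, which correlated at 0.94 to 0.98 among themselves. Values without them are given for some of the named results, and not for every gene that they move. Of the subunit probes, 86 of 88 had a value on each HDAC4 array, and 87 or 88 had one on each Neo array. Of the 79 genes 76 could be tested, which needed 3 values in each group, and 74 of these had values on all 8 arrays.

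Proximal promoters show how the cytochrome c oxidase isoforms described next differ in sequence. The 250 bases before the annotated start of a muscle isoform (Cox8b), of its widely expressed partner (Cox8a) and of the widely expressed Cox6a1 are given from RefSeq, 5′ to 3′ on the strand of the gene, with every match to a searched motif in capitals.
Cox8b, GRCm38.p6, chr7:140900447-140900696, minus strand: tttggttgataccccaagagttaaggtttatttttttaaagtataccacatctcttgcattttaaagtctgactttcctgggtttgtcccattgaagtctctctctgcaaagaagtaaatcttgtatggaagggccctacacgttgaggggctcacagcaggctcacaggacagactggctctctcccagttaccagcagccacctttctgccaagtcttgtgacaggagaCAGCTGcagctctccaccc
Cox8a, GRCm38.p6, chr19:7217617-7217866, minus strand: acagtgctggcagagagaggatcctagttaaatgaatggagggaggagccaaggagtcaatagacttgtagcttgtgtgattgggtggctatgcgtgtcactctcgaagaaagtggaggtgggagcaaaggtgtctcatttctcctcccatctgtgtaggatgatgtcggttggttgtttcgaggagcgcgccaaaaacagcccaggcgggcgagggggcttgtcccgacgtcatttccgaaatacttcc
Cox6a1, GRCm38.p6, chr5:115348959-115349208, minus strand: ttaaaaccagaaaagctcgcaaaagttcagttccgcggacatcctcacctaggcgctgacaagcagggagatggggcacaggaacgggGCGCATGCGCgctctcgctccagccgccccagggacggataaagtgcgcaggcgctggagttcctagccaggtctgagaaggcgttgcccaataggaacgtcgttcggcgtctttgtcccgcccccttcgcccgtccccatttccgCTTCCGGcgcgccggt
The motifs, searched on both strands, were GCGCATGCG for NRF1, CCGGAAG for ETS factors such as GABP, AAGGTCA for a single site of oestrogen-related receptors, CAGCTG for a myogenic E-box and CTANNNNTAG for MEF2. Cox8b held the E-box and none of the other motifs. Cox6a1 held 2 overlapping NRF1 matches, since the motif reads nearly alike on both strands, and 1 ETS match near the start. Cox8a held no match in this window. The pattern searched for MEF2 takes any base at N and has a fixed end. Neither its matches nor their absence is thus a count of MEF2 sites.

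A promoter window was listed for 65 of the 79 genes, and for 27025 genes in all. The NRF1 motif stood in 6 of the 65 (9.23%), against 1.64% of all listed genes, and the ETS motif in 11 (16.9%), against 7.83%. The single site for oestrogen-related receptors stood in 4 (6.15%, against 4.70%). The E-box stood in 5 (7.69%, against 14.7%), namely Cox8b, Atp5b, Ndufa8, Ndufb10 and Ndufv2. The loose pattern searched for MEF2 stood in 1, Cox5b (1.54%, against 3.70%), which is not a count of MEF2 sites. These matches are descriptions of the sequence and were not tested.

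Differences between HDAC4 and Neo cells were small for most of these genes. No subunit gene of 76 passed an adjusted p of 0.05 in limma, against 23 of 14729 tested features (0.156%), of which 1 was higher and 22 lower. That split was 70 higher and 175 lower without the arrays numbered 1, and 3 higher and 1 lower with an offset at the reference minimum removed, as described below for Cox8b. At an unadjusted p under 0.05 there were 3 subunit genes (3.95%), against 7.37% of all features. The groups did not overlap for 2 genes, Cyc1 and Ndufa3 (2.63%), against 5.35% of all features. The median log2 change (HDAC4 minus Neo) was -0.027, with 31 genes higher and 45 lower, against a median of -0.0032 over all features, with 7283 higher and 7446 lower. Without the arrays numbered 1 the subunit median was 0.0065, on the other side of 0, and the medians of complexes I to V were -0.011, 0.073, 0.12, -0.085 and 0.062.

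The 95% intervals of the change rest on the spread among these arrays, which is perhaps technical alone. They thus do not bound an effect of HDAC4 in other cultures. The 95% interval of the change lay between -1 and 1, within a 2-fold change either way, for 73 of the 76 genes (96.1%), against 87.8% of all features. It lay between -0.5 and 0.5 for 56 genes (73.7%), against 36.8% of all features. The 3 genes with wider intervals were Ndufc2, Cox8b and Cox7b2, a testis isoform of complex IV. The median spread of a subunit gene within a group was 0.17 (SD, 74 genes), against 0.25 over 13090 features.

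**Figure D1:**
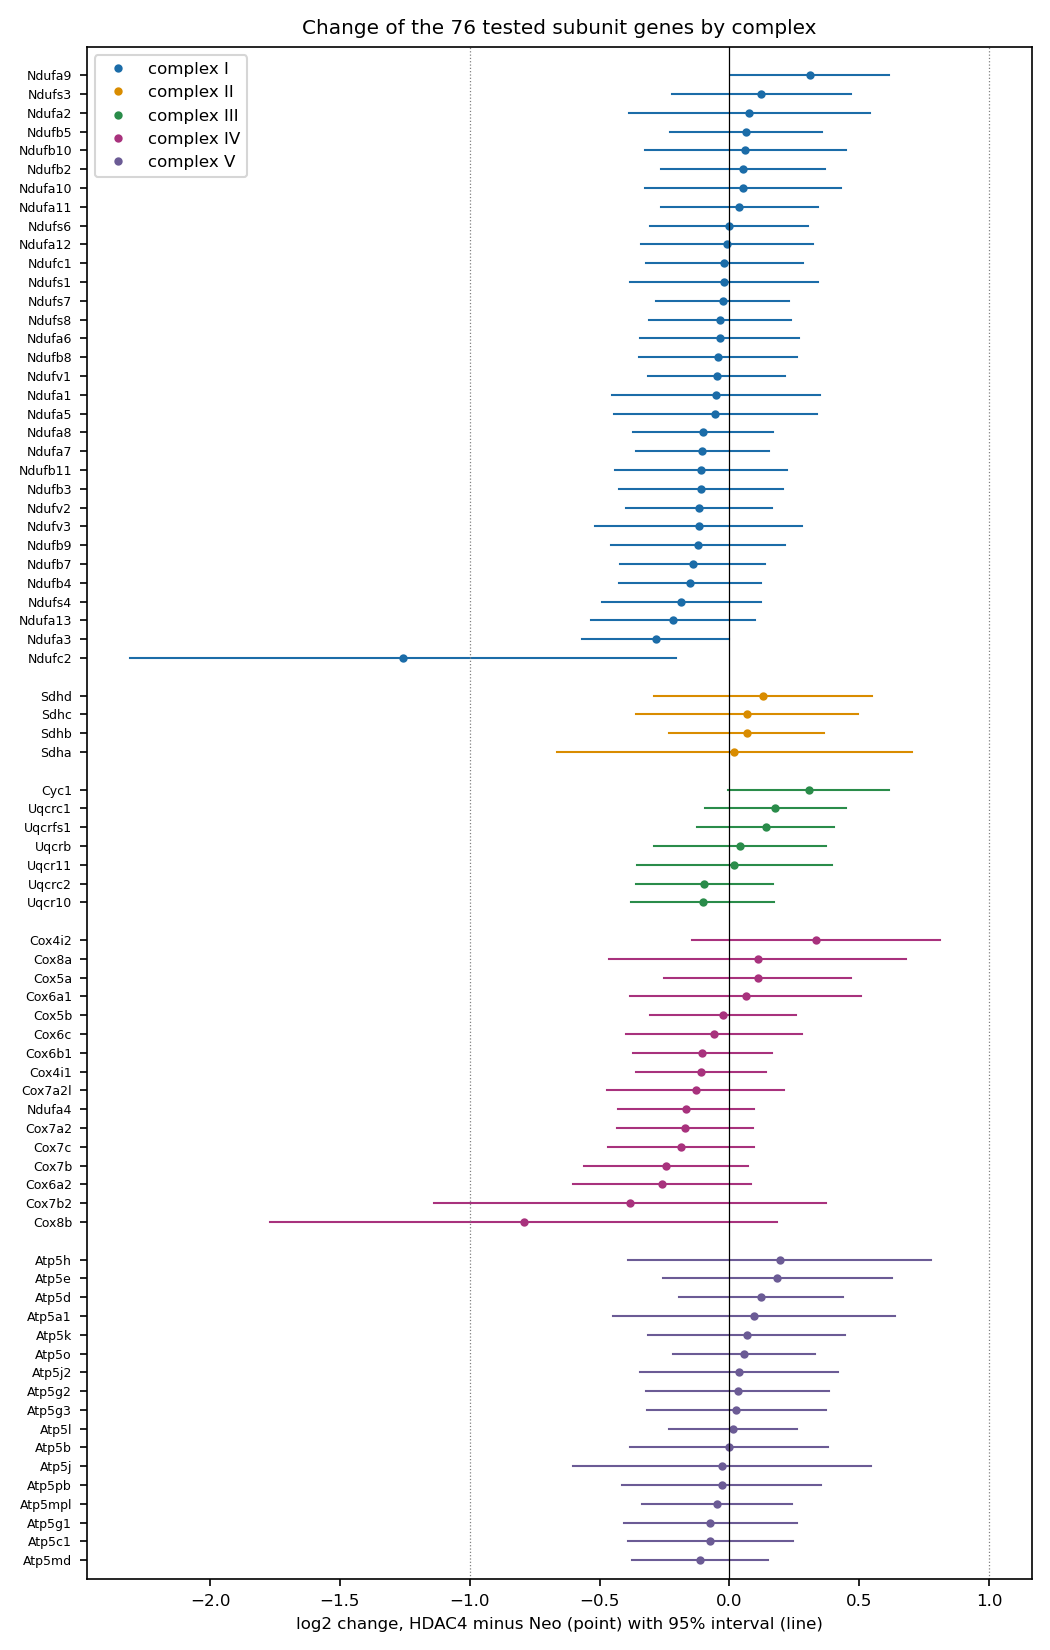
The log2 change of each of the 76 tested subunit genes (point, HDAC4 minus Neo) with its 95% interval from limma (line), ordered by size within complexes I to V; dotted lines mark a 2-fold change. All intervals stay within the dotted lines except those of Ndufc2, Cox8b and Cox7b2.

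Relative to the common reference, the subunit genes were high in both groups. Of the 76 genes 70 (92.1%) lay above 0 on every array, against 32.8% of all features. The median level was 1.06 in HDAC4 cells and 1.01 in Neo cells. Cox6a1 was the one gene below 0 on every array, and Ndufc2, Cox4i2, Cox7b2, Cox8a and Atp5g2 lay on both sides of 0. A labelling protocol says that the reference RNA came from liver, while 10 probes for liver markers had 0 to 2 values on an HDAC4 array and 0 to 3 on a Neo array. The tissue of the reference is therefore not settled here. Since RNA came from whole cultures, fewer cells of a type and less RNA per cell cannot be told apart.

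Complex I, the NADH dehydrogenase, had 8 genes higher and 24 lower among 32 tested, with a median change of -0.046. The interval was within 2-fold for 31 genes. Ndufc2, an accessory subunit of the membrane arm, was the exception. It had log2 ratios of 0.45, -1.47, -1.36 and -1.56 in HDAC4 replicates 1 to 4, and of 0.57, 0.11 and 0.13 in Neo replicates 1 to 3, with no value on Neo replicate 4. HDAC4 replicates 2 to 4 lay below every Neo array, while HDAC4 replicate 1 lay among the Neo values, so the groups overlapped.

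The change of Ndufc2 was -1.26 ± 0.46 (SE), with a 95% interval of -2.31 to -0.21 and an adjusted p of 0.584 in limma. Both arrays numbered 1 were high, and differed by -0.12. Without them the change was -1.59 ± 0.12 (SE, 3 HDAC4 and 2 Neo arrays; adjusted p = 0.00877 in limma). In that fit 1 of 76 subunit genes passed, against 1.57% of all features, and 6 (7.89%) had an unadjusted p under 0.05, against 17.1% of all features. Leaving out HDAC4 replicate 1 alone gave -1.74 (adjusted p = 0.0115), a batch term for number 1 gave -1.16 (0.115) and the replicate number as a block gave -1.07 (0.305). Ndufc2 rests on 1 probe, with no value at the reference minimum described below for Cox8b.

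Ndufa9, an accessory subunit at the base of the peripheral arm, had log2 ratios of 0.87, 1.14, 1.21 and 1.25 in HDAC4 cells and 0.69, 0.96, 0.88 and 0.72 in Neo cells. The replicate 1 array of HDAC4 lay within the range of the Neo arrays and the other 3 above it. The change of 0.31 ± 0.14 (SE) had an unadjusted p of 0.0471 in limma and an adjusted p of 0.670. Ndufa3, a small membrane subunit, had values of 0.24, 0.53, 0.53 and 0.59 in HDAC4 cells and 0.76, 0.79, 0.65 and 0.84 in Neo cells. These are means of 2 probes, and in them every HDAC4 array lay below every Neo array. The change of Ndufa3 was -0.28 ± 0.13 (SE; adjusted p = 0.673 in limma), and its 2 probes gave -0.47 and -0.10. The groups overlapped for the second probe, where Neo replicate 1 was the lowest array at 0.27. The first probe had 1 HDAC4 value at the reference minimum described below for Cox8b. With the offset at that minimum removed, the change of Ndufa3 was -0.21.

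Ndufab1, the mitochondrial acyl carrier protein that also sits in complex I, could not be tested. It had values of 1.48 and 0.56 in HDAC4 replicates 1 and 3 and none on the other HDAC4 arrays, against 1.87, 1.76, 1.19 and 1.29 in Neo cells. Of its 6 values all lay at the reference minimum. The HDAC4 arrays carried fewer values over all probes too, and the part of this in the missing values was not tested.

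**Figure D2:**
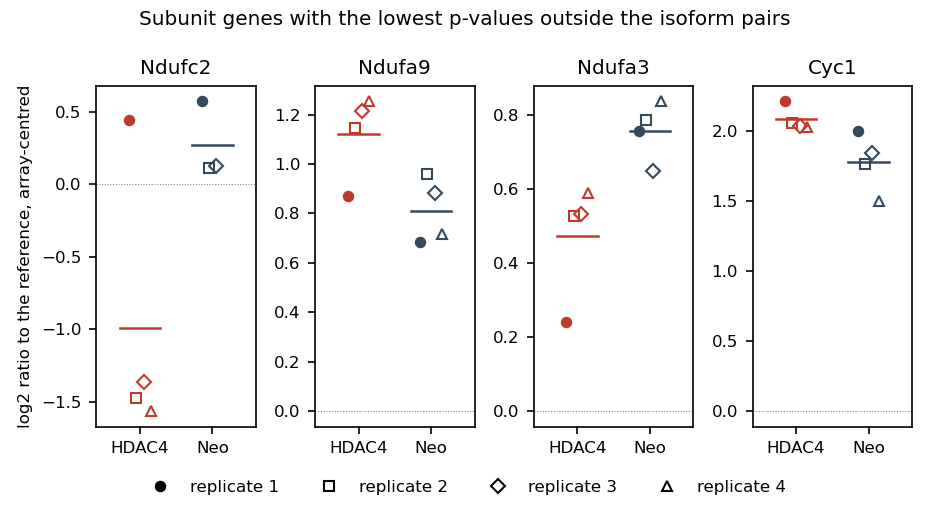
Log2 ratios to the reference (y axis, a scale for each gene) of the 4 subunit genes with the lowest p-values, with 1 symbol for each replicate number and a line at the group mean. Ndufc2 is near -1.5 on 3 HDAC4 arrays and above 0 on HDAC4 replicate 1 and on the 3 Neo arrays with a value, and the groups of Ndufa3 and Cyc1 do not overlap.

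Complex II, succinate dehydrogenase, also works in the citric acid cycle, and all 4 of its subunits were measured. All 4 changes were above 0, between 0.019 and 0.13, and none passed. Sdhd, a membrane anchor, had log2 ratios of 1.32, 0.84, 0.91 and 0.82 in HDAC4 cells and 1.15, 0.94, 0.87 and 0.40 in Neo cells, a change of 0.13 ± 0.19 (SE; adjusted p = 0.938 in limma). The groups overlapped. Sdha, the flavoprotein, had 1.15, 0.71, 0.71 and 1.78 in HDAC4 cells and 1.08, 0.70, 1.79 and 0.71 in Neo cells. Each group held low, middle and high values of similar size, and the change was 0.019 ± 0.30 (SE; adjusted p = 0.994 in limma).

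Complex III, which passes electrons from ubiquinol to cytochrome c, had 5 genes higher and 2 lower among 7 tested, with a median of 0.040. Cyc1, cytochrome c1, had log2 ratios of 2.21, 2.05, 2.04 and 2.03 in HDAC4 cells and 2.00, 1.76, 1.84 and 1.50 in Neo cells. Every HDAC4 array lay above every Neo array, although HDAC4 replicate 4 and Neo replicate 1 lay close together. The change was 0.31 ± 0.14 (SE; unadjusted p = 0.0521 and adjusted p = 0.685 in limma), and the exact permutation p was 0.0286, the smallest that 4 against 4 arrays allow. Uqcr10, a small accessory subunit, had the lowest change of the complex: 1.39, 1.36, 1.53 and 1.39 in HDAC4 cells against 1.54, 1.35, 1.50 and 1.69 in Neo cells gave -0.10 ± 0.12 (SE; adjusted p = 0.926 in limma), with overlapping groups.

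Uqcrh, the hinge protein, and Uqcrq, a ubiquinone-binding subunit, had too few values to be tested. Uqcrh stood at 1.37 and 1.43 in HDAC4 replicates 1 and 2, against 1.81, 2.46, 2.95 and 1.42 in Neo cells. Uqcrq stood at 0.56 in HDAC4 replicate 4, against -0.0058, 0.31 and 1.26 in Neo replicates 2 to 4. The Neo values of both spread widely.

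Complex IV had 4 genes higher and 12 lower among 16 tested, with a median change of -0.12, the lowest of the 5 complexes in this fit. For the 15 genes with 8 values, the median deviation from each gene's mean was -0.10, -0.11, -0.017 and -0.0095 in HDAC4 replicates 1 to 4, and 0.13, 0.11, 0.090 and -0.0011 in Neo replicates 1 to 4. The HDAC4 arrays all lay below the Neo arrays, the closest by a very small margin. No gene of the complex passed. The median change of the complex lay between -0.15 and -0.085 under all 20 alternative settings. Complexes I, II, III and V had overlapping arrays, and Neo replicate 4 was the lowest of the 8 in each of them.

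**Figure D3:**
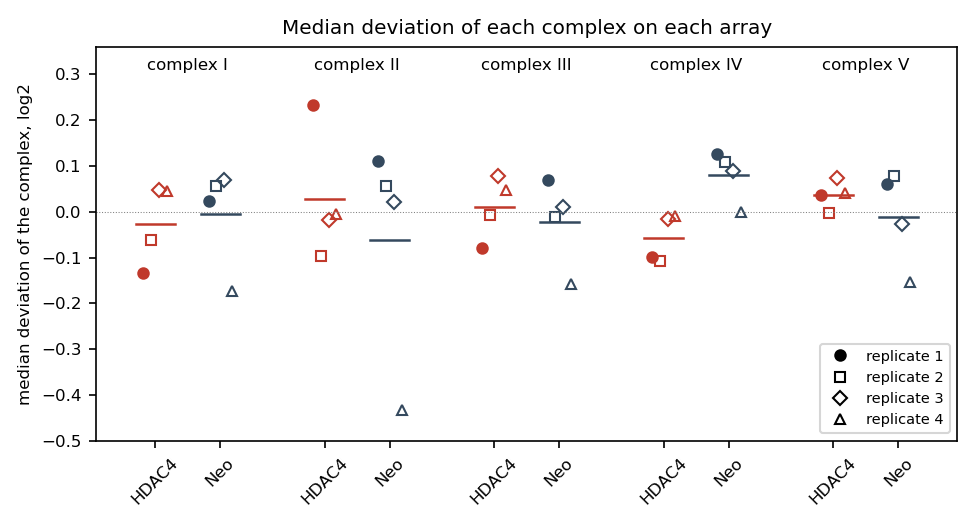
For each complex and array, the median over subunit genes of the deviation from the gene's mean (y axis, log2), for genes with values on all 8 arrays; lines mark group means. In complex IV the 4 HDAC4 arrays lie below the 4 Neo arrays, the closest pair being HDAC4 replicate 4 and Neo replicate 4, and in the other complexes the groups overlap.

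Both measured muscle isoforms of complex IV, Cox6a2 and Cox8b, were far above the reference in HDAC4 and in Neo cells, and neither passed the test. Cox6a2, the heart and skeletal muscle isoform of subunit VIa, had log2 ratios of 3.84, 4.02, 4.23 and 4.01 in HDAC4 cells and 4.59, 4.05, 4.17 and 4.33 in Neo cells. Cox6a1, its widely expressed counterpart, had -0.24, -0.84, -0.64 and -0.64 in HDAC4 cells and -0.15, -0.91, -0.75 and -0.81 in Neo cells. Both groups overlapped for either gene. The change of Cox6a2 was -0.26 ± 0.15 (SE; adjusted p = 0.809 in limma), and that of Cox6a1 was 0.063 ± 0.20 (SE; adjusted p = 0.970). With the arrays numbered 1 left out, the change of Cox6a2 was -0.097.

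Cox8b, the heart and skeletal muscle isoform of subunit VIII, had log2 ratios of 5.50, 7.55, 7.04 and 7.58 in HDAC4 cells and 7.45, 8.33, 7.61 and 7.44 in Neo cells. HDAC4 replicate 1 was by far the lowest, HDAC4 replicate 3 lay below the Neo range, and HDAC4 replicates 2 and 4 lay within the Neo range. The change was -0.79 ± 0.43 (SE), with a 95% interval of -1.77 to 0.18 and an adjusted p of 0.785 in limma. It was -0.40 ± 0.26 (SE; adjusted p = 0.473) without the arrays numbered 1 and -0.32 without HDAC4 replicate 1 alone.

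All 8 values of Cox8b lay at an inferred minimum of the reference signal of 10 units, where 10 times the ratio is a whole number within 0.001, so that the ratio holds the signal of the cells alone. The 205 probes outside the subunit set that were at this minimum on all 8 arrays had a median deviation of -0.24 ± 0.24 in HDAC4 cells and 0.30 ± 0.20 in Neo cells (SD, n = 4 each), a difference of -0.55 (exact permutation p = 0.0286). With each array's deviation of these probes removed, the change of Cox8b was -0.24 (adjusted p = 0.945 in limma). Since these ratios hold the signal of the cells alone, an array effect and lower RNA of such genes in HDAC4 cells cannot be told apart. The removal may thus take out a difference between the cells, which was not tested. Of the 694 values of subunit probes, 26 lay at the minimum, 8 of them from Cox8b and 6 from Ndufab1.

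Cox8a, the widely expressed isoform of subunit VIII, had 0.36, -0.28, -0.27 and -0.25 in HDAC4 cells and 0.51, -0.46, -0.37 and -0.55 in Neo cells. Replicate 1 was above 0 in both groups and the other 6 arrays were below it. Its change was 0.11 ± 0.25 (SE; adjusted p = 0.963 in limma), and 0.20 without the arrays numbered 1. Cox4i2, the isoform of subunit IV best known from lung, had 0.41, 0.075, 0.55 and 0.56 in HDAC4 cells and -0.51, 0.16, 0.44 and 0.17 in Neo cells. Its change of 0.33 ± 0.21 (SE; adjusted p = 0.842) was 0.14 without the arrays numbered 1.

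Cox4i1, the common isoform of subunit IV, had 0.90, 0.86, 0.97 and 0.90 in HDAC4 cells and 1.13, 1.03, 0.94 and 0.96 in Neo cells, a change of -0.11 ± 0.11 (SE; adjusted p = 0.907 in limma). Cox7a2, the widely expressed isoform of subunit VIIa, had 0.80, 0.75, 0.70 and 0.93 in HDAC4 cells and 1.004, 1.05, 0.85 and 0.95 in Neo cells, a change of -0.17 ± 0.12 (SE; adjusted p = 0.862). Both genes overlapped between the groups. No probe is named for Cox7a1, so its muscle isoform was not analysed here.

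**Figure D4:**
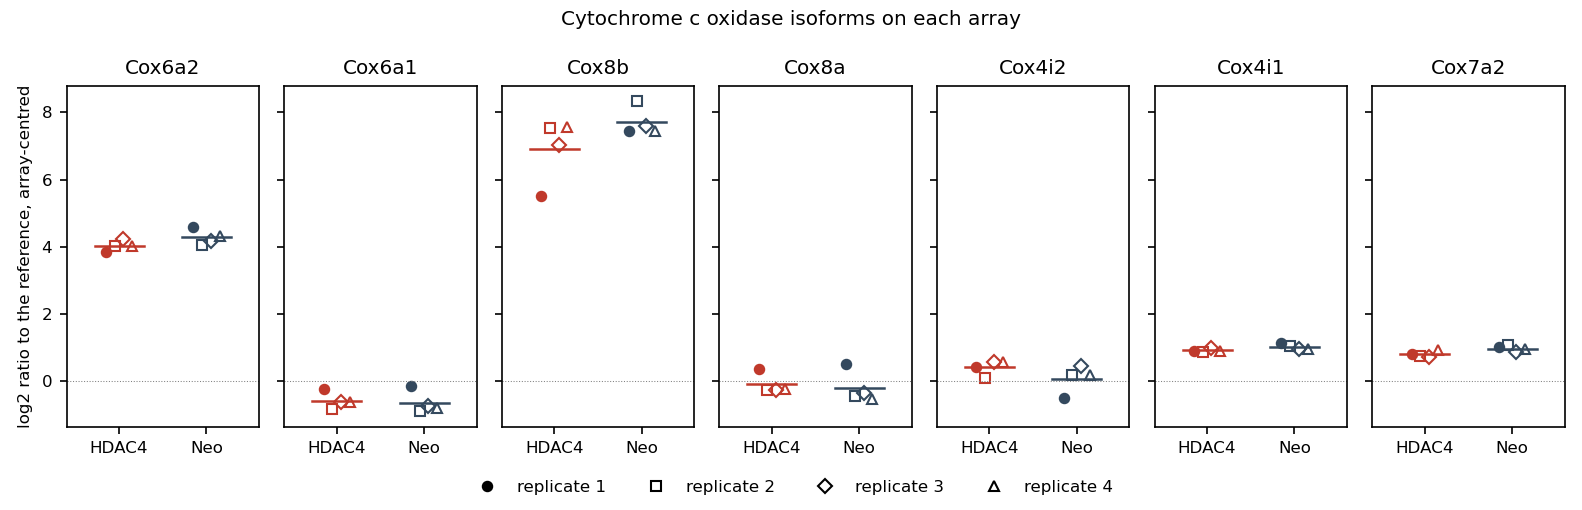
Log2 ratios to the reference (shared y axis) of 7 cytochrome c oxidase isoform genes on each array, with 1 symbol for each replicate number and a line at the group mean. Cox6a2 and Cox8b lie far above 0 in both groups, Cox6a1 lies below 0, and HDAC4 replicate 1 is the lowest array for Cox8b.

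Whether a tissue isoform changed differently from its common partner was asked within arrays, for the 3 pairs with values. The size of such a difference depends on the probes, so it is read between groups alone. The log2 ratio of Cox6a2 minus that of Cox6a1 averaged 4.62 ± 0.37 in HDAC4 cells and 4.94 ± 0.17 in Neo cells (SD, n = 4 each), a difference of -0.32 (exact permutation p = 0.143, 0.214 adjusted over the 3 pairs). Cox8b minus Cox8a averaged 7.02 ± 1.28 in HDAC4 cells and 7.93 ± 0.76 in Neo cells, a difference of -0.90 (exact permutation p = 0.314, adjusted 0.314). Cox4i2 minus Cox4i1 averaged -0.51 ± 0.20 in HDAC4 cells and -0.95 ± 0.49 in Neo cells, a difference of 0.44 (exact permutation p = 0.0857, adjusted 0.214). None of the 3 passed. Between arrays of equal number, HDAC4 lay below Neo in 4 of 4 for the first pair and for Cox8b minus Cox8a, and above it in 4 of 4 for Cox4i2 minus Cox4i1. The paired exact permutation p was 0.125 for each, adjusted over the 3 pairs, which is the smallest that 4 pairs of arrays allow. The sole ground for pairing arrays of equal number is the correlation of their deviations, which is weak. It was 0.12 for number 4, while HDAC4 replicate 4 reached 0.26 with Neo replicate 2. Without the arrays numbered 1 the differences were -0.21, -0.60 and 0.21. Without HDAC4 replicate 1 alone they were -0.14, -0.27 and 0.44, and without Neo replicate 1 alone Cox4i2 minus Cox4i1 was 0.21. With the offset at the reference minimum removed, Cox8b minus Cox8a was -0.35.

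Complex V, the ATP synthase, had 10 genes higher and 7 lower among 17 tested, a median change of 0.027 and a range of -0.11 to 0.19. The interval was within 2-fold for all 17. Its catalytic-core subunits Atp5a1 and Atp5b differed between the groups by 0.094 and -0.00081 on the log2 scale, and the genes of the membrane c ring, Atp5g1, Atp5g2 and Atp5g3, by -0.073, 0.032 and 0.027; these 5 were picked for their roles with the values already known. Atp5h, subunit d of the peripheral stalk, had log2 ratios of 0.79, 1.23, 1.32 and 1.25 in HDAC4 cells and 1.05, 1.34, 0.15 and 1.28 in Neo cells. Neo replicate 3 was the lowest array, and the change was 0.19 ± 0.26 (SE; adjusted p = 0.935 in limma). It was 0.34 without the arrays numbered 1, and -0.073, on the other side of 0, without Neo replicate 3. Atp5md, a small membrane subunit, had 1.25, 1.48, 1.45 and 1.52 in HDAC4 cells and 1.54, 1.56, 1.55 and 1.51 in Neo cells, a change of -0.11 ± 0.12 (SE; adjusted p = 0.907).

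Of the 8 genes with more than 1 probe, 6 had probes whose differences bore the same sign. The probes of Atp5g2 gave -0.057 and 0.12, and those of Atp5l gave -0.081 and 0.11. The widest gap between probes of a gene was 0.37, for Ndufa3.

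Genes that work with the complexes were taken from lists chosen by function. Of 29 tested assembly factors, which build the complexes and are not part of them, 24 were higher in HDAC4 cells and 5 lower. Over all features 7283 were higher and 7446 lower. The median change of the list was 0.070, and none of its genes passed an adjusted p of 0.05. Its array medians overlapped, at 0.67 to 0.93 in HDAC4 cells and 0.60 to 0.83 in Neo cells, the lowest on Neo replicate 4. The part of that array in the split was not tested. Timmdc1, a complex I assembly factor, had 1, 1.04, 0.82 and 1.56 in HDAC4 cells and 0.26, 0.70, 0.81 and 0.39 in Neo cells, a change of 0.57 ± 0.19 (SE; adjusted p = 0.523 in limma). Taco1, a translational activator of the mitochondrial gene for cytochrome c oxidase subunit I, had 0.37, 0.47, 0.74 and 0.90 in HDAC4 cells and 1.19, 1.32, 1.48 and 1.08 in Neo cells, a change of -0.65 ± 0.16 (SE; adjusted p = 0.262). The groups did not overlap for either gene, as for 5.35% of all features, and both genes were named for a low p. For Timmdc1 the margin was very small, with 0.818 in HDAC4 replicate 3 and 0.811 in Neo replicate 3. Taco1 had 6 values at the reference minimum.

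The citric acid cycle and the pyruvate dehydrogenase complex had 8 genes higher and 8 lower among 16 tested, with a median of 0.0097. Pdha1, a pyruvate dehydrogenase subunit, had a change of 0.43 ± 0.14 (SE; adjusted p = 0.496 in limma), and Idh2, the mitochondrial NADP-dependent isocitrate dehydrogenase, one of -0.46 ± 0.17 (SE; adjusted p = 0.596), with 3 HDAC4 values. Both were named for a low p and had groups that did not overlap, as did Dlst of the same list, against 5.35% of all features. For 6 tested genes of other electron entry routes the median was 0.015, with Etfa at 0.084 and Gpd2 at -0.11. For 10 carriers and channels it was 0.070, with Slc25a20 at 0.21 and Slc25a4, the muscle adenine nucleotide carrier, at -0.19.

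Of 15 tested regulators of mitochondrial genes, 11 were higher and 4 lower, with a median of 0.059. The array medians of this list overlapped, at -0.011 to 0.20 in HDAC4 cells and -0.080 to 0.36 in Neo cells. Ppargc1a, the coactivator PGC-1α, had log2 ratios of 1.26, -0.013, 1.05 and 0.65 in HDAC4 cells and 2.19, 1.15, 1.43 and 1.17 in Neo cells. Its change was -0.75 ± 0.31 (SE; adjusted p = 0.648 in limma), with overlapping groups and all 8 values at the reference minimum. Ppargc1b, a related coactivator, had a change of 0.21. Nrf1, Gabpa and Esrra, which act on subunit genes through motifs of the kind searched above, had changes of 0.024, 0.059 and -0.031. They were picked for their roles with the values already known, not for their p. No member of these lists passed an adjusted p of 0.05, and at an unadjusted p under 0.05 there were 2 of 29 assembly factors, 2 of 16 genes of the citric acid cycle list and 1 of 15 regulators, against 7.37% of all features. None of the 13 subunits encoded in mitochondrial DNA has a named probe here.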

How the data were processed

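Total RNA (10 µg, DNase treated) of 8 samples was measured on 2-colour oligonucleotide arrays, with cell RNA in Cy5 and a common reference in Cy3 on every array, per the labels' protocols. The values deposited are log2 ratios, 1 for each probe on an array, with array medians between 0.0058 and 0.029. For the authors' background correction, normalization and filters, the sources used here give nothing.

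The median of each array was subtracted. Probes were named from the platform annotation and symbols updated through RefSeq (GRCm38.p6). A gene's value was the mean of its probes with at least 3 values in each group, each probe first centred so that a missing value does not shift the gene. A probe with no gene or several genes was kept as its own feature. Members, lists and tests were chosen with earlier results of these data known. HDAC4 was compared with Neo across all 14729 features with limma 3.58.1 in R 4.3.3 (lmFit, eBayes, Benjamini-Hochberg). This step was also run on simulated data with independent noise, which lack the shared deviation of the arrays numbered 1. The number of arrays limits the precision. Single values had exact two-sided permutation tests. Same-numbered HDAC4 and Neo arrays had deviations that correlated at 0.53, 0.31, 0.20 and 0.12 for numbers 1 to 4. Each exceeds 0.1, which is the sole ground for treating equal numbers as pairs. Unequal numbers correlated as highly in places: HDAC4 replicate 4 reached 0.26 with Neo replicate 2 and 0.22 with Neo replicate 3, and HDAC4 replicate 3 reached 0.21 with Neo replicate 2. The alternatives tried were other centring, filters, probe rules, handling of the reference minimum and of replicate 1, the replicate block, an intensity trend and each array left out. Cox7a1 and Hdac4, with no named probe, were not analysed here.

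Named genes were the isoform genes, the highest and lowest change in each complex, subunit genes at an unadjusted p under 0.05, and the lowest p in each direction of each pathway list. Marker genes, core and c ring genes of complex V, Nrf1, Gabpa, Esrra and Dlst were named outside that rule, with their values known.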

Additional observations from a re-analysis of the deposited data

Results flagged for a closer look

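Of 41 groups of 4 values examined, 6 had 1 array far from the others by Dixon's criterion (a gap above 0.829 of the whole range), and chance gives about 1 in 20. Ndufc2 was 0.45 on HDAC4 replicate 1, against -1.47, -1.36 and -1.56 on the other HDAC4 arrays. Cox8a was 0.36 on HDAC4 replicate 1, against -0.28, -0.27 and -0.25 on the other HDAC4 arrays, and 0.51 on Neo replicate 1, against -0.46, -0.37 and -0.55 on the other Neo arrays. Cyc1 was 2.21 on HDAC4 replicate 1, against 2.05, 2.04 and 2.03. Atp5h was 0.79 on HDAC4 replicate 1, against 1.23, 1.32 and 1.25. The median deviation of complex II was -0.43 on Neo replicate 4. The arrays involved are those numbered 1 in 5 of the 6 cases.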

How the results depend on the processing

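A set of 12 alternatives and the removal of each of the 8 arrays in turn were run. The count of subunit genes at an adjusted p under 0.05 in limma was 0 in every setting except 2: it was 1 (Ndufc2) without both arrays numbered 1 and 1 without HDAC4 replicate 1, so it ranged from 0 to 1 with 1 array left out. At an unadjusted p under 0.05 it was 0 to 6. The count over all features was 23. It was 10 with the replicate block, 106 with replicate 1 as a batch term, 245 without both arrays numbered 1, 2 (1 higher, 1 lower) without probes mostly at the reference minimum and 4 (3 higher, 1 lower) with the offset at that minimum removed. With 1 array left out it ranged from 0 to 71, being 71 without HDAC4 replicate 1 and 67 without Neo replicate 1, 4, 5 and 2 without HDAC4 replicates 2, 3 and 4, and 0 without Neo replicate 2, 3 or 4, where 880, 906 and 917 features had an unadjusted p under 0.05. With the replicate block 0 subunit genes passed, and no isoform pair could, since 4 pairs of arrays allow no p below 0.125. The median change of the subunit genes lay between -0.084 (without Neo replicate 4) and 0.0065 (without both arrays numbered 1), and below 0 in every other setting. Medians changed sign in some settings for complexes II (-0.052 to 0.13), III (-0.039 to 0.12) and V (-0.048 to 0.062), and not for complex I (-0.088 to -0.011) or IV. The sign of Sdha turned to -0.011 with quantile normalization. With 1 array left out it turned for Sdha (-0.21 to 0.26), Sdhd (-0.016 to 0.23), Atp5h (-0.073 to 0.32), Cox6a1 (-0.053 to 0.23) and Cox8a (-0.048 to 0.35). The causes were not tested. The differences of the isoform pairs kept their sign, with adjusted p from 0.075 to 0.657 in exact permutation tests, but not their size: -1.23 to -0.27 for Cox8b minus Cox8a, -0.41 to -0.14 for Cox6a2 minus Cox6a1 and 0.21 to 0.59 for Cox4i2 minus Cox4i1. For Cox8b minus Cox8a and Cox6a2 minus Cox6a1 it was 0.075 with replicate 1 as a batch term and 0.15 without both arrays numbered 1. In these 2 settings the arrays allow no permutation p below 0.05, so no pair could pass. Ndufc2 has no value under the filter for all 8 arrays, Cox8b none without probes at the minimum, and the intensity trend does not apply to the pairs.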
